A study of Homo sapiens with 6 samples.

Results

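The tetraspanin family was examined in bulk RNA sequencing of THP-1 cells in which the transcription factor NFIC had been depleted with a short hairpin RNA (shRNA). Members were the protein-coding genes whose symbol is TSPAN followed by a number, together with CD9, CD37, CD53, CD63, CD81, CD82 and CD151. This rule found 26 genes among the 33981 in the count table. THP-1 is an established human monocytic leukemia line that carries the MLL::AF9 fusion. The control group held 3 samples labelled as scrambled shRNA and the other group held 3 samples labelled as NFIC shRNA, and all 6 were collected 4 days after lentiviral infection as cells sorted for the vector's green fluorescent protein. The labels call the control a scrambled shRNA, as do the results and figure legends of the study. The methods of the study instead describe a control vector with the fluorescent protein only. The data do not tell these descriptions apart. The study's text numbers 1 control sample otherwise than the labels, which were followed. Each group is a set of samples of 1 cell line, and the NFIC group carried 1 hairpin, sh494, with no second hairpin in these data. Nothing states that the replicates came from separate cultures, so the p-values measure the spread between these samples, which may be technical. In bulk samples, less RNA per cell and fewer cells of a type cannot be told apart.

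Tetraspanins are small membrane proteins that cross the bilayer several times and hold a large extracellular loop. They bind integrins, immunoglobulin superfamily proteins, proteases and each other, and so gather partner proteins into patches of the cell surface, of endosomes and of secreted vesicles. In monocytes and macrophages they are known for roles in adhesion, migration, antigen presentation and cell fusion. The members called TspanC8, named for the cysteines in their large loop, escort the protease ADAM10 out of the endoplasmic reticulum and direct which surface proteins it sheds.

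The sequence targeted by the hairpin is shown first, since every comparison rests on it.
sh494 target: gatggacaagtcaccattcaa
The site lay in exon 7 of the canonical NFIC transcript, within the coding sequence, at chr19:3449042-3449062 on the plus strand of GRCh38. Its 21 bases matched exactly in 8 of 11 NFIC transcripts and in no transcript of any other gene of GENCODE release 44. Over the 286 transcripts of the 26 tetraspanin genes, the best ungapped match had 7 mismatches, and the best match per gene ranged from 7 to 9.

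NFIC transcripts fell in the knockdown. NFIC had 911, 1019 and 904 counts with the scrambled shRNA, against 399, 518 and 493 counts with the NFIC shRNA. The groups did not overlap and the log2 fold change was -0.99 (SE 0.072, n = 3 per group, edgeR adjusted p = 3.73e-09). Total counts ranged from 20369543 to 24809720 per sample, so that 3 counts, the upper limit a count of 0 allows, corresponded to 0.122 to 0.145 in counts-per-million units (CPM), scaled by the TMM factors of edgeR. These limits cover counting error only. The other NFI genes on the list were also lower or near zero. NFIX fell by 0.54 on the log2 scale (SE 0.080, edgeR adjusted p = 1.59e-05), NFIA had 14, 17 and 15 counts in the scrambled samples against 3, 0 and 4, and NFIB had 1 count in all 6 samples together.

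The labelled cell type was checked against marker genes. Over all genes tested, the background for each count here, 59.9% were called, 29.6% higher and 30.3% lower. Of 8 monocytic leukemia markers, all were tested and 7 were called, 3 higher and 4 lower. Their summed level was 1581 to 1775 CPM in the scrambled samples and 1786 to 1911 CPM in the NFIC shRNA samples. LYZ carried this rise, from a mean of 572 to 940 CPM, so the sum does not stand for the list. ITGAM rose from a mean of 50.4 to 100 CPM and CD14 from 7.16 to 11.2 CPM. CEBPA fell from 595 to 419 CPM, CSF1R from 219 to 146 CPM, CD33 from 33.9 to 17.4 CPM and MPO from 58.1 to 48.6 CPM. Of 10 granulocyte markers, 9 had a row and 7 were tested, of which 2 were higher and 5 lower. Their summed level was 3670 to 4289 CPM in the scrambled samples and 2091 to 2160 CPM in the NFIC shRNA samples. ELANE, AZU1 and PRTN3, at means of 2130, 1105 and 639 CPM in the scrambled samples, made up most of it and fell. The 2 that rose were BPI, from a mean of 2.01 to 23.7 CPM, and CEACAM6, from 4.37 to 53.5 CPM. LTF and MMP8 were near zero. Lymphoid, erythroid, megakaryocytic and epithelial markers summed to 8.60 to 9.91 CPM in the controls and 3.06 to 3.42 CPM in the knockdown. Of these 11 genes, 6 had a row and 2 passed the filter, and both were lower. ITGA2B had 126, 148 and 140 counts in the controls against 34, 40 and 41 in the knockdown, and CD79A had 46, 68 and 45 against 28, 27 and 31. CD3D had 1 count and HBB 3 counts over all samples. Any part of these shifts in the tetraspanin results was not tested.

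Of the 26 tetraspanin genes, 23 passed the filter on low counts and 17 differed between the groups at an adjusted p under 0.05 in the quasi-likelihood test of edgeR, 5 of them higher and 12 lower with NFIC shRNA. The knockdown moved a large share of the transcriptome. Of 19182 genes tested, 59.9% were called, 29.6% higher and 30.3% lower, and of the protein-coding genes tested 65.4% were called. The members' count of calls, 17 of 23, therefore lay near the background. Changes of at least 1 on the log2 scale were called in 9 of the 23 members, 8 lower and 1 higher, beside 11.9% of all genes tested, of which 8.57% were lower and 3.36% higher, and 11.2% of protein-coding genes. A low gene can pass the filter through the group where it is higher, so these counts and shares are descriptions. TSPAN12 and TSPAN10, both among the 12 lower, had few counts in the knockdown and may have passed in that way. Under 5 CPM, 7 of 11 tested members passed that fold, against 1368 of 6372 genes of all kinds, and at or above 5 CPM the numbers were 2 of 12 members and 919 of 12810 genes. The median log2 fold change was -0.23 over the 23 members and -0.011 over all genes tested. CPM values of the 2 groups did not overlap in 19 of the 23 members, 6 with higher and 13 with lower values in the NFIC shRNA samples, beside 65.2% of all genes tested.

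**Figure D1:**
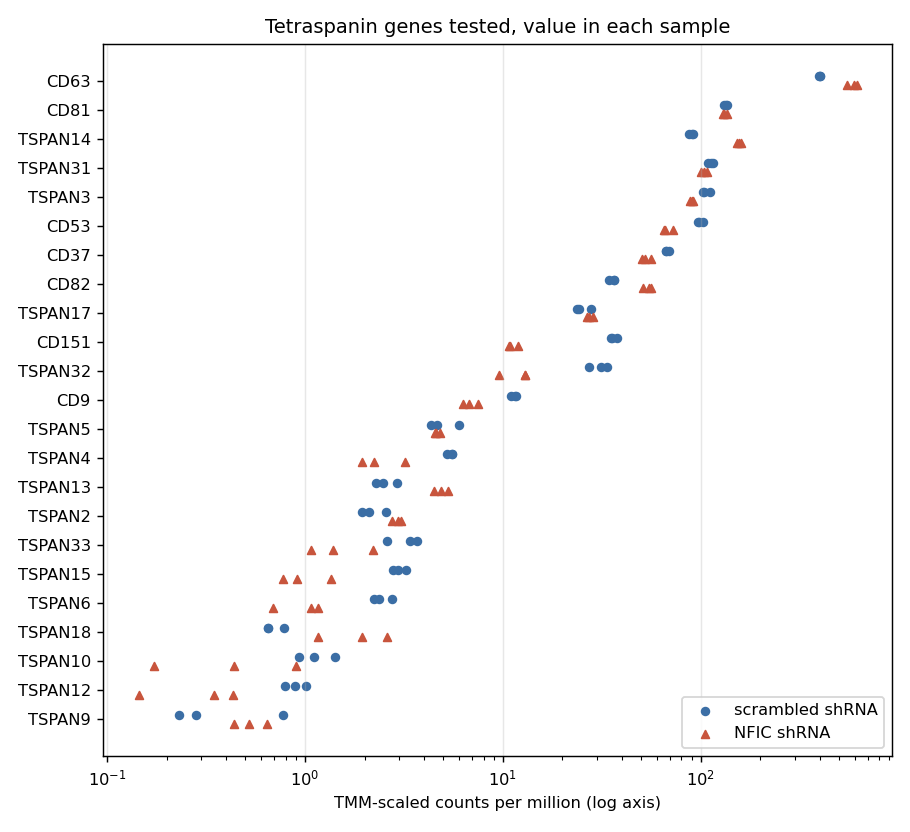
Level in CPM, scaled by the TMM factors of edgeR and drawn on a log axis, of the 23 tetraspanin genes tested. Each circle is 1 scrambled sample and each triangle 1 NFIC shRNA sample. CD63 lies highest on this scale in both groups, and the triangles of CD151, TSPAN32, TSPAN4, TSPAN15, TSPAN6 and TSPAN12 lie to the left of all their circles.

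Another 3 members were near zero and were not tested. TSPAN16 had 1, 8 and 1 counts in the controls against 6, 1 and 8 in the knockdown, TSPAN7 had 0, 3 and 4 against 4, 1 and 0, and TSPAN1 had 1 count in 1 scrambled sample and none elsewhere. TSPAN1 is mainly known from epithelia and TSPAN7 from brain. TSPAN8, a tetraspanin of epithelia, was listed for the family but is not analysed here. Among tetraspanins that carry other names, the photoreceptor gene ROM1 was tested and had a log2 fold change of -0.36 (SE 0.23, edgeR adjusted p = 0.185), while PRPH2, UPK1A and UPK1B had no more than 4 counts in any sample. Of the L6 genes, a separate family of multi-pass membrane proteins, TM4SF19 was tested and did not pass (log2 fold change -0.068, SE 0.32, edgeR adjusted p = 0.870), TM4SF20 had at most 5 counts in any sample, and the other 4 listed are not analysed here.

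Levels between members were compared as CPM per kilobase of the gene length that the authors deposited. In the scrambled samples CD63 led with 152 CPM per kb ± 1.23 (SD, n = 3), followed by CD53 at 46.1 ± 1.47. TSPAN31 at 21.4 ± 0.677, CD81 at 18.1 ± 0.380, CD37 at 16.2 ± 0.284 and TSPAN3 at 12.6 ± 0.584 CPM per kb came next, each separated from its neighbours in all 3 samples. CD151, CD82 and TSPAN32, at 9.30 ± 0.360, 8.85 ± 0.324 and 8.10 ± 0.832 CPM per kb, overlapped as neighbours and were not ordered by these samples. TSPAN14 and TSPAN17, at 4.999 ± 0.116 and 4.84 ± 0.439 CPM per kb, also overlapped. The order depended on the length used, and with the length of the canonical transcript CD81 moved from place 4 to place 2, ahead of CD53. By group mean, CD151 went from place 7 to place 11 in the NFIC shRNA samples, CD82 from place 8 to place 5 and TSPAN14 from place 10 to place 8. The overlaps leave the starting places 7, 8 and 10 unsettled. With canonical lengths CD151 went from place 6 to place 11, CD82 from 9 to 7 and TSPAN14 from 10 to 6.

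The family's transcripts summed to 1173, 1176 and 1174 CPM in the scrambled samples and to 1336, 1291 and 1346 CPM in the NFIC shRNA samples, an increase of 12.7%. CD63 supplied that increase, since the other 25 genes together went from 775 CPM ± 1.64 to 738 CPM ± 5.42 (SD, n = 3), a decrease of 4.83%. Per kilobase, the family rose from 312 to 357 CPM per kb while its sum without CD63 went from 160 to 134, a decrease of 16.4%. CD63 made up 48.6% of the family's CPM per kb in the scrambled samples and 62.5% in the NFIC shRNA samples, and CD53 went from 14.8% to 8.83%. With canonical transcript lengths the shares were 51.5% and 64.6% for CD63 and 8.70% and 5.08% for CD53. These sums are descriptions and carry no test.

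**Figure D2:**
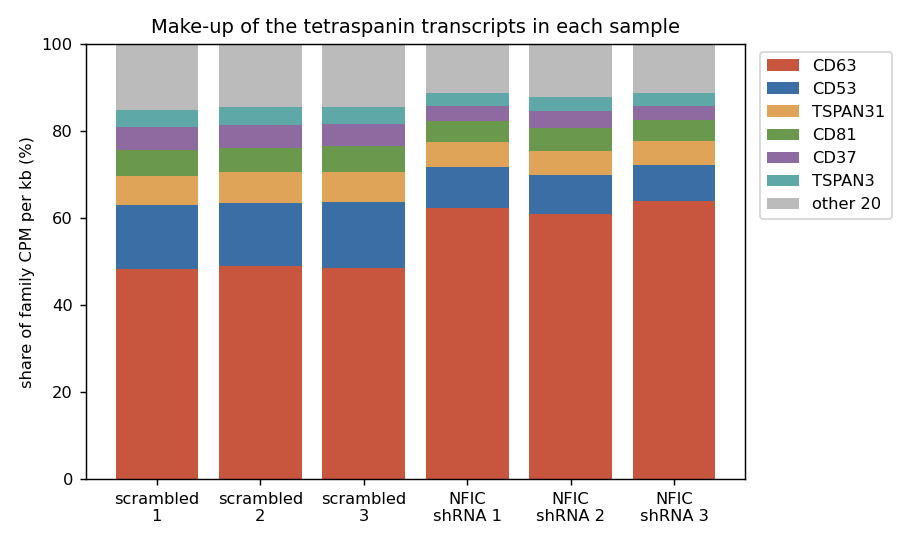
Share of the family's CPM per kilobase, in percent, for each of the 6 samples, with the 6 highest members drawn separately and the other 20 together. The CD63 share lies near 48.6% in the 3 scrambled bars and near 62.5% in the 3 NFIC shRNA bars, and the CD53 share is smaller in the latter.

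Among the tetraspanins of vesicles and adhesion, CD63 rose, CD151, TSPAN4 and CD9 fell, and CD81 did not pass the test. CD63, a tetraspanin of late endosomes, lysosomes and exosomes, was at 396, 403 and 399 CPM in the scrambled samples and at 594, 552 and 614 CPM in the NFIC shRNA samples. All knockdown values lay above all controls, by a log2 fold change of 0.55 (SE 0.051, edgeR adjusted p = 5.71e-08). CD151, the tetraspanin that binds laminin-binding integrins, was at 35.8, 37.8 and 35.1 CPM against 10.9, 11.98 and 10.8 CPM. It fell by 1.69 on the log2 scale (SE 0.081, edgeR adjusted p = 3.03e-11), or by 69.0%, the smallest adjusted p of the family, and its 3 control samples were tightly grouped. TSPAN4, a tetraspanin of migrasomes, the vesicles left on the retraction fibres of migrating cells, had 120, 128 and 118 counts against 46, 74 and 45. Its groups were also separate, with a log2 fold change of -1.13 (SE 0.18, edgeR adjusted p = 2.92e-05). CD9, which acts in adhesion and restrains fusion of monocytes into giant cells, was at 11.5, 11.0 and 11.6 CPM against 7.47, 6.29 and 6.72 CPM. It was lower in every knockdown sample, with a log2 fold change of -0.74 (SE 0.11, edgeR adjusted p = 1.81e-05). CD81, which forms complexes with CD9 at the cell surface, was at 136, 131 and 135 CPM against 132, 135 and 130 CPM. The groups overlapped, the log2 fold change was -0.018 (SE 0.049, edgeR adjusted p = 0.771), and the 95% interval of the change ran from -8.03% to 6.10%.

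Among the 4 tetraspanins that mark leukocytes, CD53, CD37 and TSPAN32 fell and CD82 rose. CD53, a pan-leukocyte tetraspanin, was at 97.7, 97.1 and 102.8 CPM in the scrambled samples and at 72.4, 65.2 and 65.8 CPM in the NFIC shRNA samples. The groups were separate, and the log2 fold change was -0.55 (SE 0.058, edgeR adjusted p = 2.97e-07). CD37, a tetraspanin of B cells and myeloid cells that is used as an antibody target in leukemia, was at 68.8, 66.8 and 66.7 CPM against 52.2, 56.4 and 50.6 CPM. Its fall was the smallest of the 3, at -0.34 on the log2 scale (SE 0.060, edgeR adjusted p = 8.46e-05). TSPAN32, also called TSSC6 and restricted largely to blood cells, was at 33.5, 27.3 and 31.4 CPM against 12.9, 13.0 and 9.62 CPM. The control samples spread more than for CD53, yet the highest knockdown value remained under the lowest control, with a log2 fold change of -1.38 (SE 0.11, edgeR adjusted p = 2.05e-08). CD82, known as a suppressor of metastasis in solid tumours and as a tetraspanin of blood stem cells, was at 36.7, 34.3 and 36.3 CPM against 51.4, 55.9 and 55.1 CPM. It was higher in all 3 knockdown samples, with a log2 fold change of 0.60 (SE 0.064, edgeR adjusted p = 3.59e-07).

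**Figure D3:**
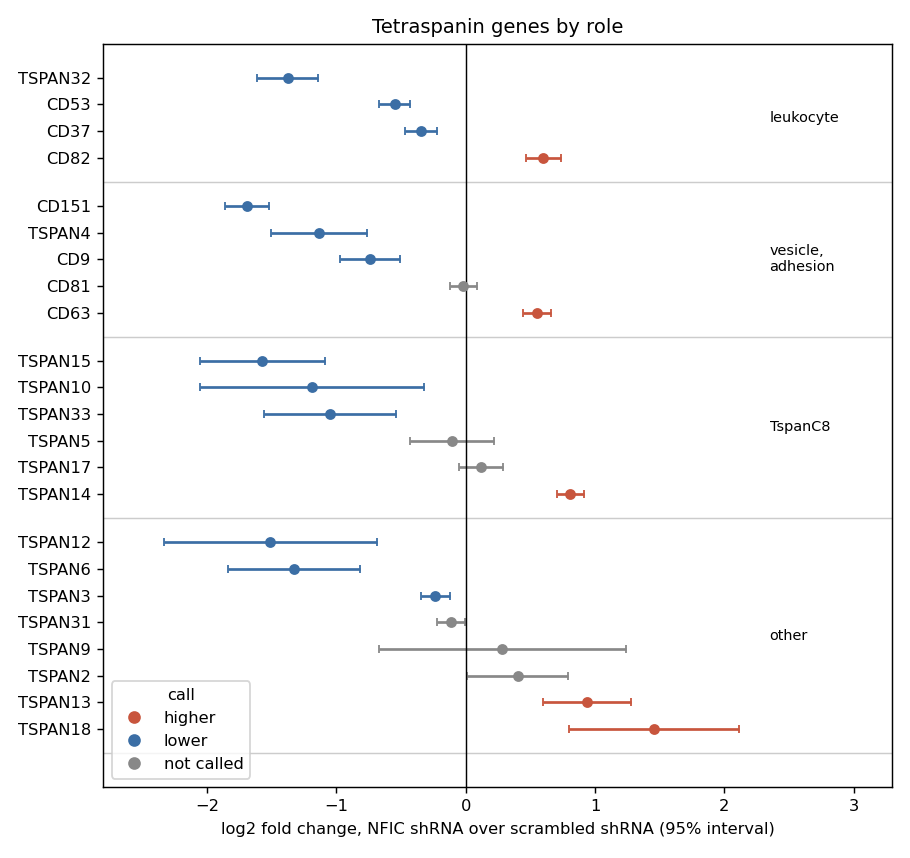
Log2 fold change of NFIC shRNA over scrambled shRNA for the 23 tetraspanin genes tested, grouped by role, with the 95% interval from edgeR as bars. Red marks genes called higher, blue genes called lower and grey genes not called. Each of the leukocyte, vesicle and TspanC8 groups holds 1 red gene and 3 blue genes, beside 29.6% higher and 30.3% lower over all genes tested.

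The TspanC8 genes moved in both directions. TSPAN14 rose, TSPAN15, TSPAN33 and TSPAN10 fell, and TSPAN5 and TSPAN17 did not pass the test. The bases before the first annotated start of TSPAN14, TSPAN15 and TSPAN33 are shown because these genes share a partner and moved apart. They are taken from the 250-base RefSeq windows on GRCh38.p14, for TSPAN14 up to the GENCODE start 205 bases in, all on the plus strand, and capitals mark the NFI motif TTGGC or its reverse complement GCCAA. The motif and its reverse complement are the same site read on opposite strands and can share bases.
TSPAN14 promoter, chr10:80454060-80454264: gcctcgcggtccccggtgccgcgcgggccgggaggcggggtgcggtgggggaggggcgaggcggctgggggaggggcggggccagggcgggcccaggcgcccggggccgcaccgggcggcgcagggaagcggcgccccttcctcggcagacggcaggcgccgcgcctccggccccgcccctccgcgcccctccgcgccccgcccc
TSPAN15 promoter, chr10:69451215-69451464: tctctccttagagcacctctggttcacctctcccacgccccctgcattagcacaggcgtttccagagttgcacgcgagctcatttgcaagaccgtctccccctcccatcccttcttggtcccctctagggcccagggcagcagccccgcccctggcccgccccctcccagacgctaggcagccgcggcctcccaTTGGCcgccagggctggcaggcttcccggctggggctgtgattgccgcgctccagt
TSPAN33 promoter, chr7:129144457-129144706: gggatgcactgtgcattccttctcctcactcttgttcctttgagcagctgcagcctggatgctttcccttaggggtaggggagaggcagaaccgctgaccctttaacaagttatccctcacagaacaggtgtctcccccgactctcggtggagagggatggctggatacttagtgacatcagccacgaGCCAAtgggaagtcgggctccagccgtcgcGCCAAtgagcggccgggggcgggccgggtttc
The TSPAN14 window held no match, TSPAN15 held 1 and TSPAN33 held 2, and the letters of all 3 matches also read on into CCAAT, the box of another factor, NF-Y, on one strand or the other. Of the other TspanC8 genes, TSPAN10, which fell, and TSPAN17, not called, held no match, and TSPAN5, not called, held 2. A match is a description of letters and not a binding site. RefSeq windows were found for 18 of the 26 members, and 10 of their 36 windows (27.8%) held the motif, beside 40.8% of 35116 windows of the same length over all genes. Counted by gene, 8 of the 18 members held it in at least 1 window, beside 45.8% of 27305 gene symbols. The windows of a gene can overlap. The 8 genes were TSPAN4, TSPAN5, TSPAN13, TSPAN15, TSPAN16, TSPAN31, TSPAN33 and CD63, which include members called higher, members called lower and members not called. There was no entry for CD37, CD81, CD151, TSPAN3, TSPAN7, TSPAN9, TSPAN18 and TSPAN32. The palindrome of TTGGC, a spacer and GCCAA was in 0 of the 36 member windows and in 10 of the 35116 windows.

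TSPAN14 is a TspanC8 member of blood and endothelial cells. It was at 90.1, 87.1 and 91.1 CPM in the scrambled samples and at 156, 153 and 161 CPM in the NFIC shRNA samples. The 2 groups lay far apart relative to their spread, with a log2 fold change of 0.81 (SE 0.050, edgeR adjusted p = 5.33e-10), an increase of 75.3% with a 95% interval of 62.9% to 88.6%. TSPAN15, the member that directs ADAM10 towards N-cadherin, had 60, 80 and 63 counts against 28, 18 and 21. Its groups were separate as well, with a log2 fold change of -1.57 (SE 0.23, edgeR adjusted p = 1.51e-05). TSPAN33, a member known from erythroid cells and activated B cells, had 56, 91 and 73 counts against 22, 32 and 51. Its knockdown samples were all lower but spread widely, and the log2 fold change was -1.05 (SE 0.24, edgeR adjusted p = 0.00122). TSPAN10, a member best known from pigment cells, had 24, 35 and 20 counts against 9, 21 and 4, and its fold change of -1.19 (SE 0.41, edgeR adjusted p = 0.0193) was the least stable call of the family. It lost the call with DESeq2 (adjusted p = 0.0578), without scrambled replicate 2 (log2 fold change -1.01, edgeR adjusted p = 0.0821), without NFIC shRNA replicate 1 (-1.09, edgeR adjusted p = 0.0664) and without NFIC shRNA replicate 3 (-0.76, edgeR adjusted p = 0.0900), and the change was -1.94 without NFIC shRNA replicate 2. TSPAN17 ranged from 23.6 to 27.9 CPM in the scrambled samples and from 26.5 to 28.4 CPM in the NFIC shRNA samples, and TSPAN5 from 4.34 to 6.01 CPM and from 4.55 to 4.83 CPM. Both overlapped between the groups, with 95% intervals of the change of -3.30% to 21.9% for TSPAN17 and -25.6% to 16.2% for TSPAN5.

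ADAM10 itself rose beside TSPAN14. ADAM10 went from 205 CPM ± 8.1 to 344 CPM ± 13 (SD, n = 3), a log2 fold change of 0.75 (SE 0.051, edgeR adjusted p = 1.69e-09). The summed TspanC8 level went from 12.8 to 15.6 CPM per kb, and within it TSPAN14 went from 39.1% ± 1.57 to 56.2% ± 0.560 (SD, n = 3). With canonical transcript lengths, an alternative chosen after the data were seen, the same share was 51.5% and 67.1%. Of the list of ADAM10 and 10 of its substrates, 8 were tested, of which 6 were higher and 1 lower, beside 29.6% higher and 30.3% lower over all genes tested. The receptor genes NOTCH2 and NOTCH1 rose by 0.72 (SE 0.056) and 0.43 (SE 0.067) on the log2 scale, and APP, the amyloid precursor gene, by 0.35 (SE 0.052). The exception was TREM2, a lipid receptor of macrophages, at -1.47 (SE 0.10, edgeR adjusted p = 1.62e-09). The median log2 fold change of these 8 genes was 0.39, against -0.011 for all genes tested. All of the 8 except CXCL16 lay at or above 5 CPM. Of the 12810 genes at that level, 4813 were higher and 3960 lower, with a median of 0.050. No protein or shedding was measured.

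**Figure D4:**
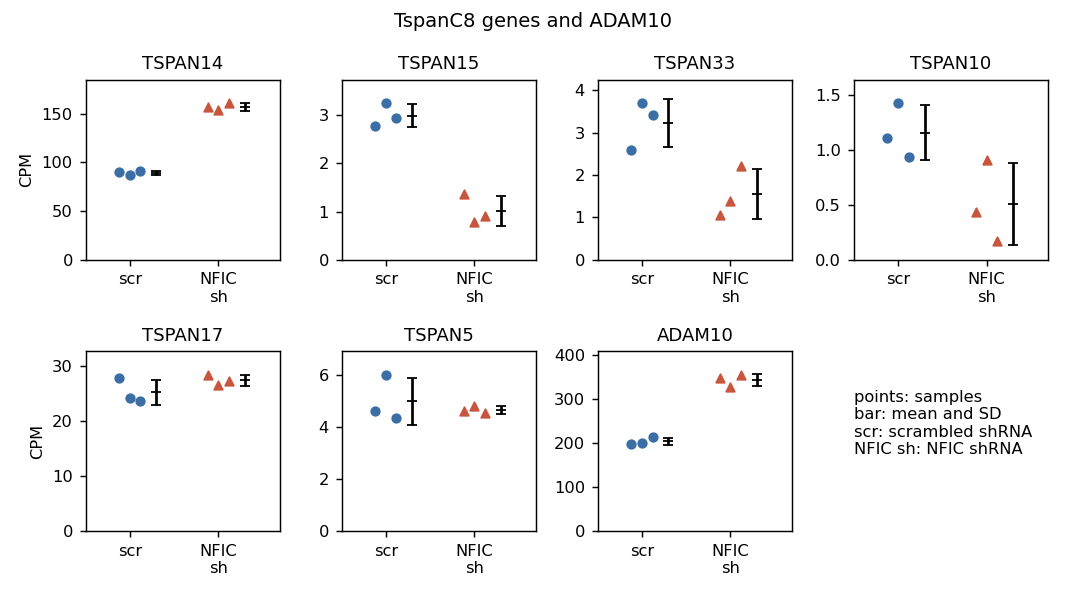
Level in TMM-scaled CPM of the 6 TspanC8 genes and of ADAM10, each panel with its own linear axis from 0. Circles are scrambled samples, triangles are NFIC shRNA samples, and the bar gives mean and SD of 3 samples. The panels of TSPAN14 and ADAM10 shift upwards, those of TSPAN15, TSPAN33 and TSPAN10 downwards, and those of TSPAN17 and TSPAN5 overlap.

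The remaining 11 members were grouped as other tetraspanins, of which 8 were tested, 2 rose and 3 fell. Over all genes tested, 29.6% were called higher and 30.3% lower, 59.9% together. TSPAN3, a gene whose product acts in leukemia stem cells of the myeloid lineage, was at 103, 111 and 102 CPM in the scrambled samples and at 90.2, 91.2 and 88.5 CPM in the NFIC shRNA samples. The fall was small but separate from the control spread, with a log2 fold change of -0.23 (SE 0.053, edgeR adjusted p = 0.00112). TSPAN6, a member that limits antiviral signalling through MAVS, had 51, 55 and 59 counts against 22, 27 and 16. Its groups did not overlap, and the log2 fold change was -1.32 (SE 0.24, edgeR adjusted p = 1.44e-04). TSPAN13 had 63, 61 and 49 counts against 93, 122 and 113. It was higher in all 3 knockdown samples, with a log2 fold change of 0.93 (SE 0.16, edgeR adjusted p = 8.22e-05). TSPAN18, known in endothelium and platelets for regulating the calcium channel ORAI1, had 17, 16 and 14 counts against 24, 45 and 60. This was the member with the largest rise, a log2 fold change of 1.46 (SE 0.31, edgeR adjusted p = 6.62e-04), though from a low level and with knockdown samples far apart. TSPAN12, a co-receptor component for norrin and FZD4, had 17 to 22 counts in the scrambled samples and 3 to 10 in the NFIC shRNA samples, with a log2 fold change of -1.51 (SE 0.39, edgeR adjusted p = 0.00304). With so few counts in the knockdown, TSPAN12 may have passed the filter only through the scrambled samples, so its p is a description.

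The other members of this group did not pass the test. TSPAN31, a gene amplified with CDK4 in sarcomas, was at 109 to 116 CPM in the scrambled samples and at 100.5 to 108 CPM in the NFIC shRNA samples, without overlap, with a log2 fold change of -0.11 (SE 0.052, edgeR adjusted p = 0.0757). Its call depended on the scaling and the filter. It was called lower with upper-quartile scaling (-0.17, edgeR adjusted p = 0.00837) and with a filter of at least 10 counts in every sample (-0.13, edgeR adjusted p = 0.0453). TSPAN2, a gene of myelinating cells, had 42 to 63 counts against 57 to 71, with a log2 fold change of 0.40 (SE 0.18, edgeR adjusted p = 0.0686), and was called higher without scrambled replicate 2 (0.53, edgeR adjusted p = 0.0375). TSPAN9 had 5 to 19 counts against 9 to 15, and its 95% interval of the change, -37.3% to 136%, was wide enough to hold a rise or a fall.

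Members that lie next to each other in the genome were compared. Chromosome 11 held 6 of the 26 genes, in 3 adjacent pairs with no other protein-coding gene lying wholly between the partners in GRCh38 (GENCODE release 44). CD151 (chr11:832887-839831) and TSPAN4 (chr11:842812-867116) were 2.98 kb apart, and both fell. TSPAN32 (chr11:2301997-2318204) and CD81 (chr11:2376177-2397802) were 58.0 kb apart, and TSPAN32 fell while CD81 did not pass the test. CD82 (chr11:44564427-44620358) and TSPAN18 (chr11:44726465-44932423) were 106 kb apart, and both rose. All 6 genes lie on the plus strand. Other named members were CD63 (chr12:55725323-55729707, minus strand), CD53 (chr1:110871188-110899922, plus strand), TSPAN14 (chr10:80454265-80533124, plus strand) and TSPAN15 (chr10:69451465-69507666, plus strand), and the last 2 are separated by 10947 kb and 87 protein-coding genes.

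Several members share exonic bases with a gene on the opposite strand. Whether the counting used strand is not given in the sources used here, so reads of such partners may not have been told apart. TSPAN31, at 112 CPM in the scrambled samples, shared 1369 bases with CDK4, which was at 181 CPM. CDK4 had a log2 fold change of -0.050 (SE 0.048, edgeR adjusted p = 0.377). TSPAN31 also shared 189 bases with AGAP2, which was at 33.2 CPM and fell by 0.49 (SE 0.072, edgeR adjusted p = 1.72e-05), so the TSPAN31 counts are uncertain. TSPAN32, at 30.7 CPM, shared 77 bases with C11orf21, at 48.6 CPM (log2 fold change 0.024, SE 0.078, edgeR adjusted p = 0.805). TSPAN10, at 1.16 CPM, shared 36 bases with NPLOC4, which was at 143 CPM and had a log2 fold change of 0.10 (SE 0.049, edgeR adjusted p = 0.0894), so the low TSPAN10 counts are uncertain. CD37 shared 319 bases with TEAD2, which fell by 1.54 (SE 0.19, edgeR adjusted p = 1.98e-06) but was at 5.85 CPM in the scrambled samples, under CD37. TSPAN18, at 0.697 CPM, shared 76 bases with TP53I11, which was at 26.2 CPM and rose by 1.30 (SE 0.091, edgeR adjusted p = 5.92e-09), so the TSPAN18 counts are uncertain as well. CD151, at 36.2 CPM in the scrambled samples and 11.2 CPM in the NFIC shRNA samples, shared 257 bases with POLR2L. POLR2L was at 27.4 and 22.2 CPM (log2 fold change -0.30, SE 0.081, edgeR adjusted p = 0.00366), so the CD151 counts are also uncertain. CD82 shared 280 bases with the antisense gene AC010768.1, at 5.49 CPM in the scrambled samples (0.86, SE 0.12, edgeR adjusted p = 9.98e-06). CD63 shared 120 with AC009779.3, at 7.39 CPM in the scrambled samples (0.45, SE 0.13, edgeR adjusted p = 0.00692). The antisense gene at TSPAN14 had no more than 5 counts in any sample. TSPAN7 shared 676 bases on the same strand with AF241726.2, and both were near zero. The part of shared reads in these results was not tested.

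Genes for proteins that tetraspanins bind moved in both directions. Of 23 listed, 20 were tested, of which 5 were higher and 10 lower. These 15 calls lay near the background of 59.9% of all genes and 65.4% of protein-coding genes tested. The median log2 fold change of the 20 was -0.15, against -0.011 for all genes tested. IGSF8, whose product is a direct partner of CD9 and CD81, fell by 1.10 on the log2 scale (SE 0.11, edgeR adjusted p = 1.24e-07), from 280, 370 and 310 counts to 132, 147 and 162. Its relatives PTGFRN and IGSF3, named after their values were seen, fell by 0.48 (SE 0.077) and 0.65 (SE 0.14). Among integrins, ITGA4 fell by 1.32 (SE 0.065, edgeR adjusted p = 7.61e-11) and ITGA7, a laminin-binding chain, by 0.76 (SE 0.073, edgeR adjusted p = 1.00e-07), whereas the shared beta chain ITGB1 rose by 0.32 (SE 0.049, edgeR adjusted p = 2.29e-05). The other laminin-binding chains on the list, named after their values were seen, were ITGA6, which fell by 0.26 (SE 0.091, edgeR adjusted p = 0.0218), and ITGA3, at 0.51 (SE 0.30, edgeR adjusted p = 0.151). CD4, a partner of CD81 and CD82 that monocytes also carry, fell by 0.71 (SE 0.054, edgeR adjusted p = 5.52e-09). The adhesion receptor gene ICAM1 rose by 1.66 (SE 0.16, edgeR adjusted p = 3.49e-06), the complement regulator CD46 by 0.33 (SE 0.047, edgeR adjusted p = 1.08e-05), and CLEC7A, the beta-glucan receptor that binds CD37, by 1.31 (SE 0.32, edgeR adjusted p = 0.00183). VCAM1 and CR2 were near zero, with at most 6 counts in any sample, and EPCAM had at most 17.

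**Figure D5:**
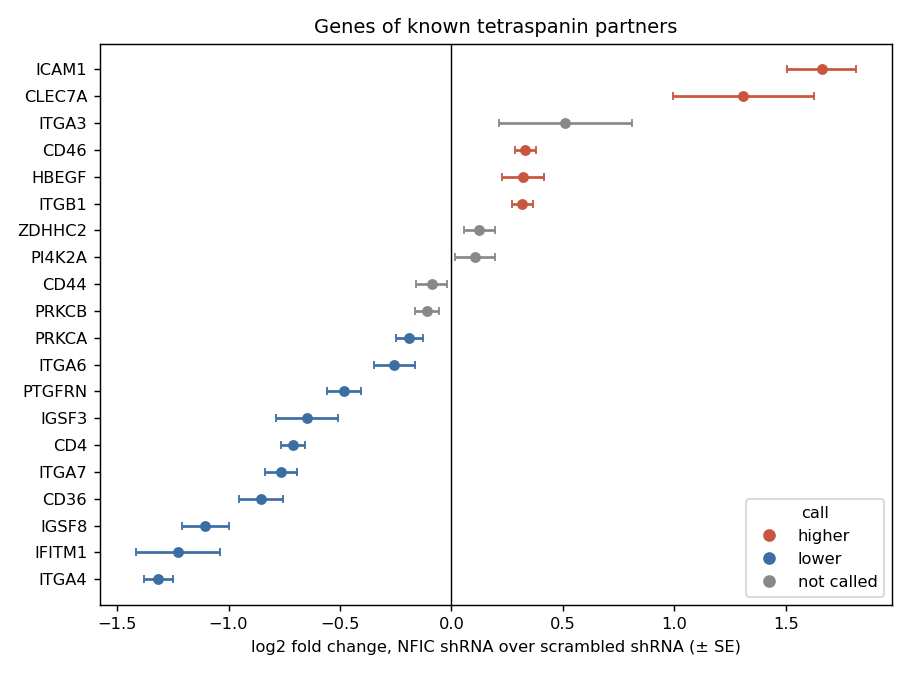
Log2 fold change of NFIC shRNA over scrambled shRNA for the 20 tested genes of tetraspanin partners, with the SE from edgeR as bars. Red marks genes called higher, blue genes called lower and grey genes not called. ITGA4 lies lowest at -1.32 and ICAM1 highest at 1.66.

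CD63 marks multivesicular bodies and exosomes, so the genes of that pathway were set beside it. All 25 listed were tested, of which 13 were higher and 7 lower, beside 29.6% higher and 30.3% lower over all genes tested. Their median log2 fold change was 0.21, against -0.011 for all genes. Most of the list lay at or above 5 CPM, where 4813 of 12810 genes were higher and 3960 lower, with a median of 0.050. RAB7A, the GTPase of late endosomes, rose by 0.71 (SE 0.047, edgeR adjusted p = 1.22e-09), and the ESCRT genes VPS4B and CHMP4B rose by 0.54 (SE 0.056) and 0.48 (SE 0.056). FLOT1, a membrane scaffold gene, rose by 0.63 (SE 0.067, edgeR adjusted p = 3.59e-07). The genes that fell included those of an adaptor, of cargo and of docking. SDCBP, which encodes syntenin, the adaptor that binds CD63 and syndecans, fell by 0.61 (SE 0.064, edgeR adjusted p = 3.72e-07). The syndecan genes SDC2 and SDC3 fell by 1.25 (SE 0.069, edgeR adjusted p = 1.44e-10) and 1.47 (SE 0.11, edgeR adjusted p = 1.81e-08), and RAB27A, a GTPase that docks multivesicular bodies at the cell surface, by 0.65 (SE 0.049, edgeR adjusted p = 5.60e-09). Another syndecan gene, SDC4, named after its values were seen, went the other way and rose by 0.28 (SE 0.092, edgeR adjusted p = 0.0137). The count of lower genes was 4 in place of 7 with DESeq2, without scrambled replicate 3 and without NFIC shRNA replicate 3.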

How the data were processed

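The submitters' processing notes name Trim Galore, FastQC, STAR, featureCounts and DESeq2 with the genome GRCh38, without versions, and the annotation was Ensembl release 96. The values used were the raw read counts per gene that the authors deposited, and levels per kilobase used the gene length in the same deposited table. Its other columns (normalized counts, FPKM and the authors' DESeq2 comparison) were not used. Nothing states whether counting used strand.

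Samples were grouped by label, 3 with scrambled and 3 with NFIC shRNA. In R 4.3.3, edgeR 4.0.16 (with limma 3.58.1) was run on all genes with filterByExpr, TMM scaling and a robust quasi-likelihood test without replicate block. P-values were adjusted by Benjamini-Hochberg over 19182 genes, with a threshold of 0.05. SEs were derived from the F statistic, and 95% intervals from the t quantile at edgeR's total degrees of freedom. The scripts were tested on simulated data in which few genes changed, whereas 59.9% of genes were called here. That simulation therefore cannot show how the scaling or the error rate behaves when most genes move. With 3 against 3 samples, an exact permutation test of 1 gene could not go below 0.1, and none was run. Alternatives were other scalings, DESeq2 1.42.0, other filters, the replicate block and leaving out each sample. Samples of a group differed by 1.94 to 7.30 times the sampling noise (chi-square per degree of freedom), so none was counted as a duplicate.

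The members, the gene lists and the tests were chosen with earlier results of these data known. Members called with a mean of at least 1 CPM over all samples were described with the value in each sample. The others were given by range, except CD81, TSPAN10, TSPAN16, TSPAN7 and TSPAN1, which were also given sample by sample. From each other list, up to 4 genes in each direction with the smallest adjusted p were described, besides NFIC and genes named otherwise in the text. Positions, overlaps and the hairpin's site came from GRCh38 with GENCODE release 44. 1 listed gene was left out of the lists and their counts and is not reported here.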

Additional observations from a re-analysis of the deposited data

How the results depend on the processing

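Over the 13 alternatives the count of tetraspanin genes called stayed between 16 and 18, with 5 or 6 higher and 11 to 13 lower. The replicate numbers did not pair the samples, since deviations of same-numbered samples correlated at 0.056, -0.086 and -0.045. Of the 3 scrambled samples, 0 correlated best with the NFIC shRNA sample of the same number, and the reverse was not counted. With the replicate block 17 members were again called, 5 higher and 12 lower, and over all genes 10983 against 11486. The log2 fold change of CD81 was 0.00044 when scaled to total counts. When single samples were left out, that of TSPAN9 ran from -0.011 to 1.05 and that of TSPAN5 from -0.20 to 0.051, and neither gene was called in the full set. No scaling moved the median of all genes by over 0.1 on the log2 scale, the largest shift being to -0.068 with upper-quartile scaling. DESeq2 called 10176 of 22122 genes. With a filter of at least 10 counts in every sample TSPAN10, TSPAN12 and TSPAN9 were not tested. TSPAN18, TSPAN12, TSPAN10 and TSPAN9 rest on the fewest counts of the members tested.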
